A study of Mus musculus with 49 samples.

Results

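The genes described are the growth hormone receptor gene Ghr, the hormone gene Igf1, the acid-labile subunit gene Igfals, and the IGF-binding protein genes Igfbp1, Igfbp2, Igfbp3, Igfbp4, Igfbp5, Igfbp6 and Igfbp7. The members were chosen by symbol, without the use of any measured value, and all 10 of them were found among the 46078 Ensembl identifiers of the deposited count table. The study followed mouse hepatocytes as they dedifferentiated in monolayer culture into expandable cells termed dediHeps, and then turned these into hepatic aggregates or intestinal organoids. Transcripts were measured in 49 libraries of 16 conditions with CEL-Seq2, a method that tags poly(A) RNA at its 3′ end and counts unique molecular identifiers (UMIs). All cells came from wild-type C57BL/6J mice, and the libraries are bulk RNA.

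Freshly isolated hepatocytes (FH, n = 3) came from livers of 10 week-old males. Hepatocytes on collagen-coated plates were sampled at 3 h and at 1, 2 and 4 days, and again at 1 week and 2 weeks (n = 3 each), and dediHeps were passaged monolayers of the same origin (n = 5). The standard medium of these cultures held EGF at 20 ng/mL. Further hepatocytes were kept for 1 week with verteporfin at 0.3 µM, an inhibitor of Yap signaling, or with its solvent DMSO (n = 2 each). dediHep aggregates (n = 3) were formed in ultra-low attachment wells in a different medium. dediHep-SOs (n = 3) are spherical organoids that dediHeps formed in Matrigel with intestinal growth factors. dediHep-BOs (n = 3) are budding organoids from dediHeps that carried retroviral Cdx2, an intestinal transcription factor gene. FIPC-SOs (n = 3) were grown from intestinal cells of E13.5 embryos, ISC-BOs (n = 4) from crypts of adult mice aged 10 weeks, and CLiPs (n = 3) are hepatocyte-derived progenitors made with the small molecules Y-27632, A-83-01 and CHIR99021. The insulin, growth hormone and glucocorticoid content of the media is not given in the sources used here, so the hormonal setting of each condition is unknown.

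Growth hormone from the pituitary binds GHR on hepatocytes, and JAK2 and STAT5 then drive transcription of Igf1, which makes the adult liver the main source of circulating IGF1. In blood, most IGF1 is held in a complex of IGF1, IGFBP3 or IGFBP5 and the acid-labile subunit, and the other binding proteins form smaller complexes that limit or deliver the ligand. Igfbp1 and Igfbp2 are classic hepatocyte genes, with Igfbp1 induced by fasting, stress and FOXO factors and repressed by insulin, whereas Igfbp3 and Igfbp7 are made in liver mainly by non-parenchymal cells.

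Of the 7 binding protein genes, 4 lie in neighbouring pairs. In GENCODE M21 (GRCm38) Igfbp1 (chr11:7197782-7202546, plus strand) and Igfbp3 (chr11:7206086-7213923, minus strand) face each other tail to tail, 3539 bases apart with 0 genes between. Igfbp2 (chr1:72824503-72852474, plus) and Igfbp5 (chr1:72857932-72874884, minus) do the same at 5457 bases with 0 genes between. The 150 bases before the RefSeq start nearest to the GENCODE start of each of these 4 genes are shown, because the pairs share a neighbourhood but not a start. They are from GRCm38.p6 and printed 5′ to 3′ along the strand of the gene. Capitals mark a forkhead core or an HNF1 site core.
Igfbp1 (chr11:7197637-7197786, plus): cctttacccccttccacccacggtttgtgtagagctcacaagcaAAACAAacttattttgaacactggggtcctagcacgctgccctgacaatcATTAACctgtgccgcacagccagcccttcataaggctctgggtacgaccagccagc
Igfbp3 (chr11:7213924-7214073, minus): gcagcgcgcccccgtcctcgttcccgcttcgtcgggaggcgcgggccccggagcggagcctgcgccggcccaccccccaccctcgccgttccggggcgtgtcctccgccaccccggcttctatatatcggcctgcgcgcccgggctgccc
Igfbp2 (chr1:72824330-72824479, plus): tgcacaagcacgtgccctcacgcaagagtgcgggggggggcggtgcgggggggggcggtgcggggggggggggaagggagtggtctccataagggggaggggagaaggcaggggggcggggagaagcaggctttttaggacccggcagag
Igfbp5 (chr1:72874866-72875015, minus): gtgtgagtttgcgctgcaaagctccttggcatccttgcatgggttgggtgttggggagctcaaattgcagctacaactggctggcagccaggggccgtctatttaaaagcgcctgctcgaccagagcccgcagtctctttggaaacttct

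The stretch before Igfbp1 holds 1 forkhead core (AAACAA, or TTGTTT on the other strand) and 1 HNF1 site core (GTTAAT, or ATTAAC on the other strand). The 250 bases before that start hold the same 1 of each. Igfbp2 has a second RefSeq start (chr1:72825387), not printed, and the 250 bases before it hold 1 forkhead core. Over all 32851 RefSeq windows of 250 bases before a start, 18.3% hold the forkhead core and 6.43% the HNF1 site core on either strand, so neither is rare. The GC content was 53.3% before Igfbp1, 78.7% before Igfbp3, 72.0% before Igfbp2 and 55.3% before Igfbp5. These are matches of letters, and binding was not measured.

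Expression is given as CPM, the count of a gene scaled to 1000000 counts per library with TMM factors over the 49 libraries, as mean ± SD where values are pooled. A count of 0 allows up to 3 counts, which was 0.775 to 3.48 CPM depending on the library, and covers counting error only. Comparisons were tested with edgeR (quasi-likelihood), and a gene is called where its FDR was under 0.1 and its log2 fold change (log2FC) beyond 2, the thresholds of the study. Library totals ran from 861047 to 3872936 counts (median 1976760). In bulk RNA, fewer cells of a type and less RNA per cell cannot be told apart. Hepatocyte identity was checked with the summed CPM of 8 marker genes (Alb, Ttr, Apoa1, Apoc3, Ahsg, Fgb, Cps1 and Tat), which ran from 21376 to 28194 in FH, 1998 to 2405 at 2 weeks, 930 to 5122 in dediHeps, 9356 to 14783 in aggregates and 14.5 to 37.5 in dediHep-SOs. The sum was 1021 to 1660 CPM in dediHep-BOs and 1259 to 2025 CPM in ISC-BOs, so it is not specific to hepatocytes. In counts it was 19653 to 23621 in FH and 19114 to 22727 in aggregates, ranges that overlap. A UMI of 6 bases allows at most 4096 counts per gene, so high values of this sum are compressed. The FH libraries also held markers of endothelial cells (7 genes, 283 to 321 CPM) and of macrophages (8 genes, 106 to 321 CPM). The libraries of the replicates differed by more than counting noise, and whether each came from a separate animal is not given for all groups, so p-values measure the spread between these libraries.

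Ghr fell sharply within the first day of culture and then partly returned in the time-course cultures. Its levels were 1264, 910 and 954 CPM in the 3 FH libraries and 1052, 996 and 1304 CPM at 3 h, ranges that overlap. At 1 day they were 103, 130 and 109 CPM, below every FH library by a wide margin. The log2FC from FH was −3.36 (SE 0.31, edgeR FDR 3.82e-08). Ghr stayed low at 2 days (125, 85.6 and 220 CPM), reached 259, 259 and 242 CPM at 4 days, and stood at 641, 513 and 521 CPM at 1 week. Each 1 week library of the time course lay above every library of days 1 to 4 and below every FH library. The log2FC from FH was −1.07 (SE 0.28, edgeR FDR 0.00434), short of the fold threshold. The separate 1 week cultures with DMSO held less Ghr, at 259 and 297 CPM, near the 4 day level. At 2 weeks the libraries were at 455, 447 and 456 CPM. The hepatocyte marker sum fell over the same days without a return, from 8457 to 10942 CPM at 1 day to 3133 to 4624 CPM at 1 week. The call at 4 days (log2FC −2.18, edgeR FDR 3.13e-06) lay near the fold threshold and stood at −2.00, just short of it, without FH replicate 1.

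In passaged dediHeps Ghr was low again, at 46.5, 105, 181, 94.8 and 92.6 CPM, below every FH library (log2FC −3.56, SE 0.40, edgeR FDR 4.11e-05). The order of the 16 condition means ran from 3 h (1117 ± 164 CPM) and FH (1043 ± 193 CPM) over 1 week and 2 weeks down to FIPC-SOs (54.1 ± 5.43 CPM) and ISC-BOs (52.5 ± 5.66 CPM), and 10 of the 15 neighbouring pairs in that order overlapped. The pairs that did not overlap were FH with 1 week, 1 week with 2 weeks, 2 weeks with verteporfin, verteporfin with aggregates, and 4 days with 2 days. Ghr was detected in all 49 libraries, intestinal organoids included.

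Igf1, the main target of growth hormone in hepatocytes, fell step by step over 4 days and was close to 0 counts in dediHeps. FH had 753, 925 and 1008 CPM and the 3 h cultures 992, 841 and 1109 CPM, which overlap. The levels were 346, 432 and 433 CPM at 1 day, 296, 137 and 184 CPM at 2 days, and 92.7, 93.7 and 94.2 CPM at 4 days. Each of these groups lay below the one before it. At 1 day the fall from FH was short of the fold threshold (log2FC −1.32, SE 0.27, edgeR FDR 0.000568), and at 2 days it passed (−2.29, SE 0.28, edgeR FDR 8.09e-07). At 1 week, when Ghr had risen, Igf1 was at 119, 155 and 138 CPM, above every 4 day library, and at 2 weeks it was at 46.2, 41.9 and 41.2 CPM (log2FC from FH −4.51, SE 0.31, edgeR FDR 7.42e-11).

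The 5 dediHep libraries held 3, 3, 2, 1 and 1 counts of Igf1, a mean of 0.935 ± 0.599 CPM against 895 ± 130 CPM in FH (log2FC −10.08, SE 0.48, edgeR FDR 1.65e-07). Aggregates held 1, 3 and 0 counts, so Igf1 stayed near the limit of detection in cultures whose hepatocyte marker sum and Ghr lay above those of dediHeps. dediHep-BOs and ISC-BOs had 0 counts in every library, and CLiPs had 0, 2 and 5 counts. Macrophages can also make Igf1. The summed macrophage markers were at 1.20 to 9.63 CPM at 3 h against 106 to 321 CPM in FH, and their part in Igf1 was not tested. Igf1os, an antisense gene that overlaps Igf1 on chromosome 10 without a shared exon, had at most 7 counts in any condition.

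Igfals, which encodes the acid-labile subunit of the circulating IGF complex, was at 88.1, 325 and 385 CPM in FH and at 148, 295 and 126 CPM at 3 h. At 1 day it had fallen to 15.1, 16.3 and 10.1 CPM, below every FH library (log2FC −4.42, SE 0.51, edgeR FDR 6.44e-07). It did not come back with Ghr, since 1 week libraries were at 10.5, 6.22 and 12.5 CPM and 2 week libraries at 8.26, 4.85 and 8.01 CPM. dediHeps ranged from 1.53 to 2.41 CPM (log2FC −7.21, SE 0.51, edgeR FDR 2.07e-06), and aggregates from 1.54 to 2.61 CPM. The fall in Igfals was called in every comparison of cultured cells with FH except that at 3 h.

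**Figure D1:**
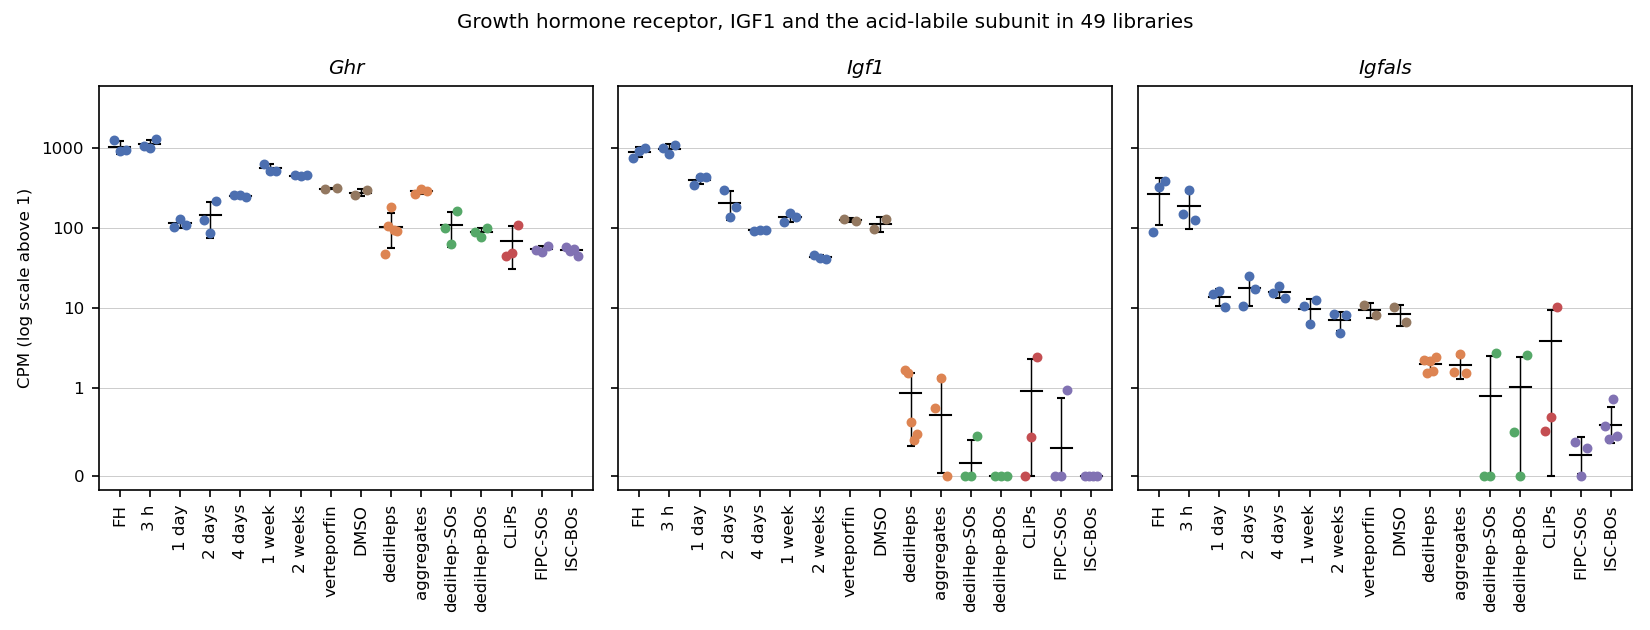
Ghr, Igf1 and Igfals in the 16 conditions, as CPM on an axis that is logarithmic above 1. Points are libraries, bars are means and error bars SDs, drawn no lower than 0. Ghr fell to 114 ± 13.9 CPM at 1 day and stood at 558 ± 72.1 CPM at 1 week, whereas Igfals was at 25.2 CPM or less in every library from 1 day on and Igf1 had at most 5 counts per library from dediHeps onward.

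Igfbp1, whose product binds IGF1 in plasma and is under acute metabolic control, was the one member called at 3 h. FH had 77.2, 123 and 158 CPM and the 3 h cultures 2036, 1745 and 1840 CPM, a gap many times the spread within either group. The log2FC was 3.98 (SE 0.34, edgeR FDR 1.23e-07). At 1, 2 and 4 days Igfbp1 ranged from 274 to 604 CPM, above every FH library, with log2FC values of 1.46, 1.67 and 1.63 that were under the fold threshold. At 2 weeks it was at 131, 98.9 and 140 CPM, within the range of FH (log2FC −0.08, edgeR FDR 0.853). TMM factors were low in FH, so with library sizes alone the median log2FC of all genes stood at 0.61 to 1.05 from 1 day to 2 weeks in place of −0.03 to 0.17. On that scale Igfbp1 was called at 1, 2 and 4 days (2.14, 2.49 and 2.53) and its value at 2 weeks turned to 0.64.

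dediHeps differed greatly among themselves in Igfbp1, at 0, 96.6, 0.617, 69.6 and 8.20 CPM. Of these 4 lay below every FH library and 1 within their range, and the comparison with FH did not pass (log2FC −2.00, SE 1.19, edgeR FDR 0.214). The 2 dediHep libraries without or nearly without Igfbp1, replicates 1 and 3, had hepatocyte marker sums of 930 and 2060 CPM. Replicates 2 and 4, with 96.6 and 69.6 CPM of Igfbp1, had sums of 4167 and 4432 CPM. Replicate 5 had the highest sum, 5122 CPM, but only 8.20 CPM of Igfbp1. The part of these differences in Igfbp1 was not tested.

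Igfbp2, a binding protein that hepatocytes secrete, fell step by step until it could not be detected. Its levels were 408, 678 and 678 CPM in FH, 571, 527 and 305 CPM at 3 h and 251, 150 and 252 CPM at 1 day. They went on to 50.9, 45.1 and 30.4 CPM at 2 days and to 2.86, 1.74 and 1.07 CPM at 4 days. From 1 day on, each group lay below the one before it. The log2FC from FH was −3.96 at 2 days (SE 0.43, edgeR FDR 1.72e-07) and −8.33 at 4 days (SE 0.56, edgeR FDR 1.20e-10). The 1 week libraries together held 1 count, so FH was 4569-fold higher with a counting interval of 819 to 180565. dediHeps and aggregates held 0 counts, which puts FH at least 2258-fold above dediHeps and at least 1082-fold above aggregates.

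Igfbp3, the main carrier of IGF1 in blood, was undetected in hepatocytes and rose in culture. All FH and 3 h libraries had 0 counts. Igfbp3 was at 2.58, 4.07 and 2.53 CPM at 1 day, 38.6, 27.9 and 28.4 CPM at 2 days, 72.3, 262 and 91.5 CPM at 4 days and 210, 385 and 181 CPM at 1 week. Against 3 counts over the FH group this is at least 2.72-fold at 1 day, at least 28.4-fold at 2 days, at least 129-fold at 4 days and at least 220.2-fold at 1 week (edgeR FDR 0.0223, 1.18e-05, 1.21e-07 and 2.58e-08). It was lower at 2 weeks, at 84.5, 54.0 and 61.8 CPM, and in dediHeps at 36.7, 10.2, 4.01, 16.7 and 3.86 CPM, at least 11.5-fold above FH (edgeR FDR 0.0129).

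Stellate cells and endothelial cells of the liver are known sources of Igfbp3, so their markers are given beside it. FH held 283 to 321 CPM of endothelial markers and 83.8 to 199 CPM of stellate or fibroblast markers (10 genes) and no Igfbp3. Endothelial markers summed to 6.93 to 43.7 CPM at 1 week, the condition with the highest mean of Igfbp3. The stellate or fibroblast sum at 1 week was 175, 112 and 44.5 CPM in the libraries with 210, 385 and 181 CPM of Igfbp3, so both were lowest in the third but were not in the same order. In dediHeps that sum was 0.508 to 2.74 CPM, with Lrat, Pdgfrb, Col1a2, Col3a1 and Lum at 0. The part of stellate and endothelial cells in Igfbp3 was not tested.

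Igfbp4, a binding protein that mainly inhibits IGF action, was abundant in FH, fell at 1 day and returned part of the way, as Ghr did. FH had 2021, 1519 and 1366 CPM, the 3 h cultures 2706, 3633 and 2827 CPM and the 1 day cultures 96.8, 242 and 64.7 CPM. The fall from FH to 1 day was called (log2FC −3.77, SE 0.45, edgeR FDR 1.09e-06), whereas the higher level at 3 h, where the groups do not overlap, was not (0.91, SE 0.40, edgeR FDR 0.146). The counts of Igfbp4 at 3 h are close enough to the 4096 sequences a UMI of 6 bases can take that a correction for UMIs drawn more than once raised the 3 h mean from 3055 to 4723 CPM and the log2FC to 1.50, still under the fold threshold. Levels in the 1 week libraries of the time course (563, 647 and 645 CPM) lay above every library of days 1 to 4. The DMSO cultures of the same age held 339 and 671 CPM. Passaged dediHeps held 1077, 691, 667, 668 and 567 CPM, a log2FC from FH of −1.36 (SE 0.32, edgeR FDR 0.00660). Unlike Igf1, Igfals and Igfbp2, Igfbp4 was thus well expressed in dediHeps.

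Igfbp5, which binds to extracellular matrix, was close to the detection limit through the time course. It had 8.70, 0 and 3.99 CPM in FH and 1.20, 8.13 and 7.49 CPM at 3 h, and 0 counts in all libraries from 1 day to 1 week. FH held 12 counts in all, at least 9.33-fold more than the 1 day group. Igfbp5 was not tested in the time course because it did not pass the filter on low counts.

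Igfbp6, which prefers IGF2 over IGF1, did not pass the filter in any comparison. Its highest levels were 31.2 CPM in CLiP replicate 3 (the other CLiPs had 0 and 0.224 CPM), 9.63 CPM in 1 library at 4 days and 7.70 CPM in 1 verteporfin library. All 15 neighbouring pairs in the order of its condition means overlapped, as they did for Igfbp5.

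Igfbp7, a secreted protein of low affinity for IGFs that is associated with stellate cells and vessels, fell at first and was above FH in dediHeps. FH libraries were unlike each other, at 253, 87.4 and 44.9 CPM. Levels were 41.3, 23.4 and 3.54 CPM at 1 day, 149, 534 and 270 CPM at 1 week, 412, 349 and 374 CPM at 2 weeks, and 1400, 865, 323, 541 and 781 CPM in dediHeps. Every dediHep library lay above every FH library (log2FC 2.38, SE 0.66, edgeR FDR 0.0150). The value was 1.98, short of the fold threshold, without FH replicate 3.

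The FH library with the most Igfbp7 also had the most stellate or fibroblast markers, 199 CPM against 108 and 83.8 CPM. Without that library, FH replicate 1, the falls at 1 day and 2 days were no longer called (log2FC values −1.67 and −1.52), and the higher values at 1 week and 2 weeks, at 1.17 and 1.41 with all libraries, were called (2.15 and 2.40, edgeR FDR 0.0125 and 0.00643). They were also called with library sizes alone (2.02 and 2.08). The stellate or fibroblast sums were 175, 112 and 44.5 CPM at 1 week and 193, 352 and 68.7 CPM at 2 weeks, and their part in Igfbp7 was not tested. In dediHeps, with the highest mean of Igfbp7, stellate or fibroblast markers summed to 0.508 to 2.74 CPM and endothelial markers to 0 to 0.965 CPM. Igfbp7 (chr5:77349240-77408041, minus strand) shares exonic sequence with Polr2b on the opposite strand, and whether counting used strand is not given in the sources used here. Polr2b was at 53.5 to 86.3 CPM in ISC-BOs, where Igfbp7 had 1 count in all.

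**Figure D2:**
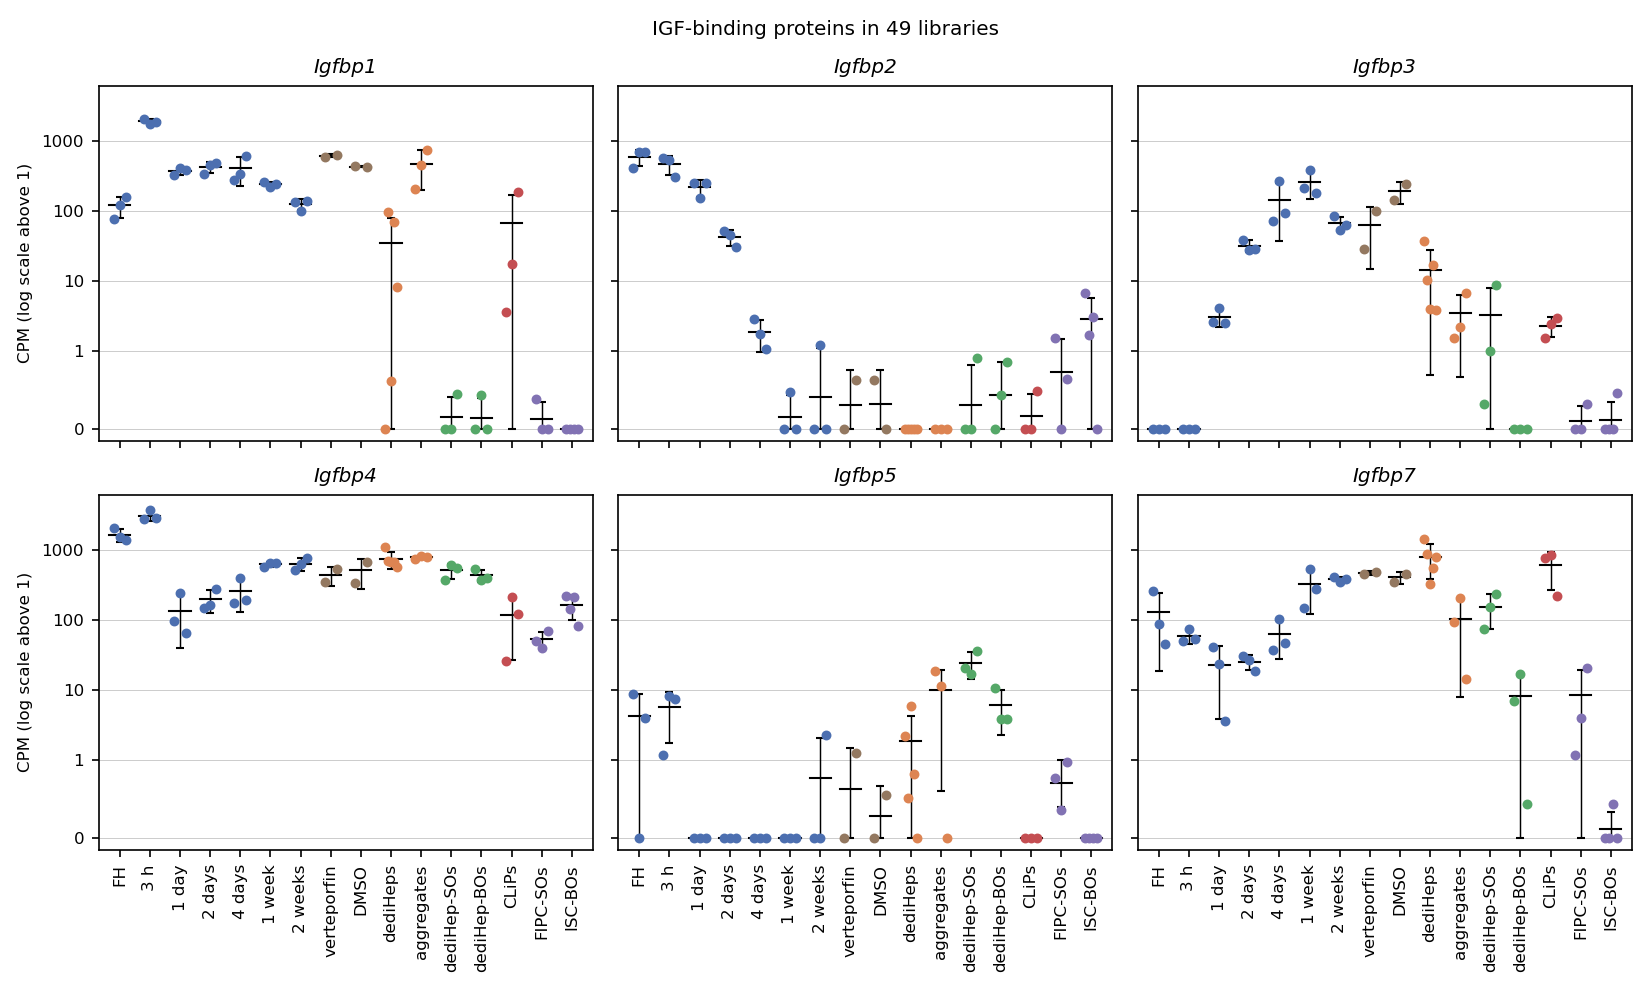
Igfbp1, Igfbp2, Igfbp3, Igfbp4, Igfbp5 and Igfbp7 in the 16 conditions, as CPM on an axis that is logarithmic above 1. Points are libraries, bars are means and error bars SDs, drawn no lower than 0. Igfbp1 peaked at 3 h (1874 ± 148 CPM), Igfbp2 fell from 588 ± 156 CPM in FH to 0 counts in dediHeps, Igfbp3 rose from 0 counts to 259 ± 110.0 CPM at 1 week, and Igfbp7 was highest in dediHeps (782 ± 406 CPM).

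Over the time course 8 of the 10 members passed the low-count filter. A member can pass through the group in which it is high alone, so the counts and medians that follow describe these members and are not a test of the family. At 3 h 1 member was called, Igfbp1, beside 6.91% of all genes tested (11.9% without FH replicate 1). At 1 day 5 were called (1 higher, 4 lower), beside 17.4% of all genes, and at 2 days 7 (1 higher, 6 lower), beside 21.3%. At 4 days 6 were called (1 higher, 5 lower, background 23.8%), and at 1 week and 2 weeks 4 each (1 higher, 3 lower, backgrounds 25.9% and 29.5%). The member called higher was Igfbp3 at every time from 1 day on. The median log2FC of the members tested was 0.05 at 3 h, −2.13 at 1 day, −2.77 at 2 days, −2.50 at 4 days, −1.31 at 1 week and −1.42 at 2 weeks, against medians over all genes of −0.07 to 0.17. The time points were compared with the same 3 FH libraries, which they share.

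In dediHeps against FH, 6 of 8 members tested were called, beside 25.7% of all genes. Igfbp3 and Igfbp7 were higher and Ghr, Igf1, Igfals and Igfbp2 lower, and the median over the members tested was −2.78 against 0.08 over all genes. These medians were the same when members with 0 counts in a group were set at their bound. With library sizes alone the median of all genes in this comparison stood at 0.96, and the same number of members was called.

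**Figure D3:**
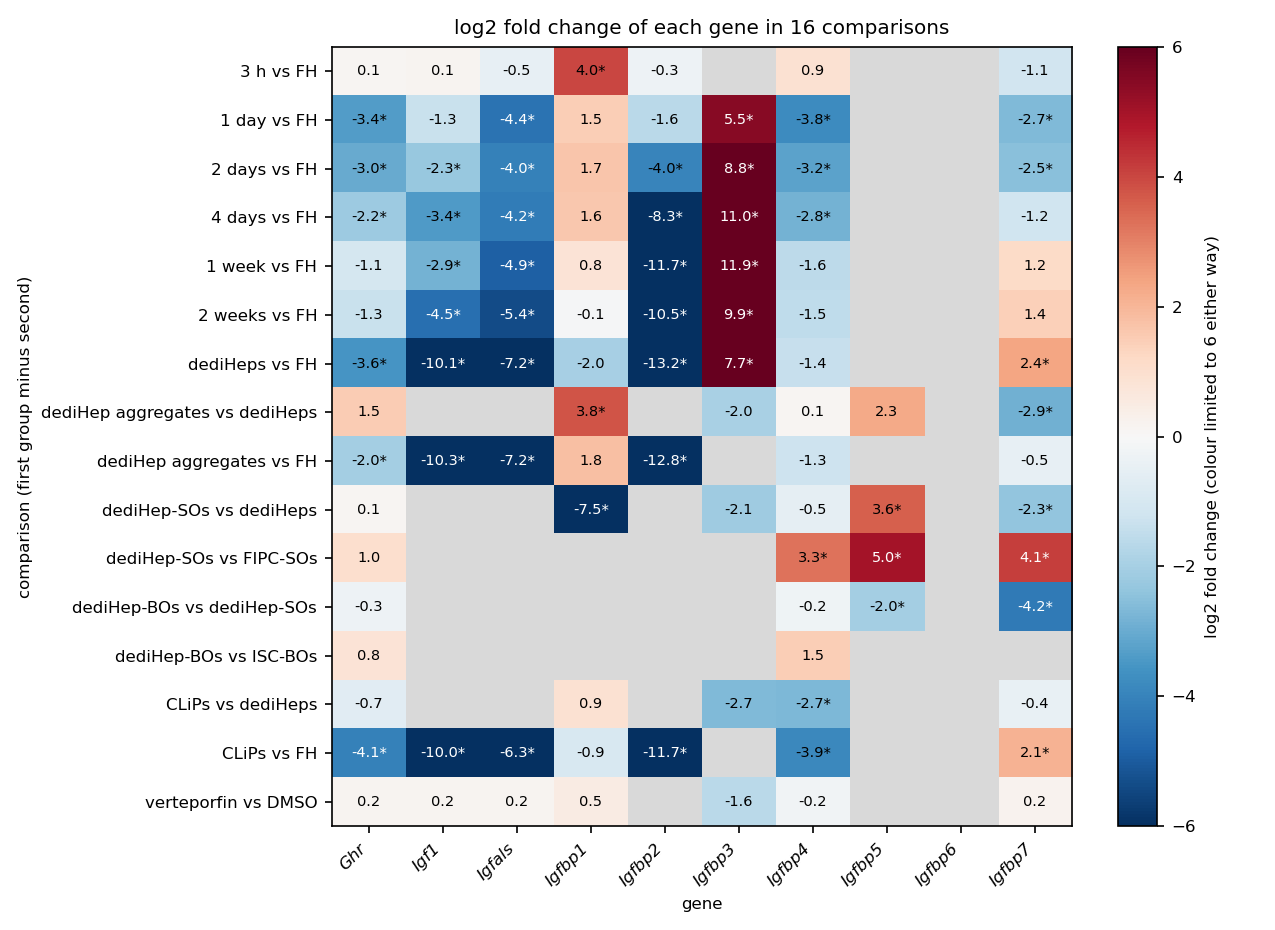
Log2 fold changes (log2FC) of the 10 members (columns) in the 16 comparisons (rows), from the edgeR fits, with colours limited to ±6. Asterisks mark called members and grey marks members not tested or with at most 3 counts in both groups. Fold changes against groups with 0 to 3 counts are fitted values and no bounds. Rows against FH are mostly blue for Ghr, Igf1, Igfals and Igfbp2 and red for Igfbp3, and the verteporfin row has 0 asterisks.

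dediHep aggregates, the cultures in which hepatic genes return, regained Igfbp1 and part of Ghr but not Igf1, Igfals or Igfbp2. Igfbp1 was at 207, 445 and 740 CPM in aggregates, above all 5 dediHep libraries (log2FC 3.78, SE 1.20, edgeR FDR 0.0583). Ghr was at 268, 305 and 293 CPM, also above every dediHep library, with a log2FC of 1.51 that was under the fold threshold (SE 0.36, edgeR FDR 0.0232). Igfbp7 went down, to 91.3, 204 and 14.4 CPM (log2FC −2.88, SE 0.76, edgeR FDR 0.0314). Igfbp4 did not differ beyond its spread, at 730, 803 and 782 CPM against 567 to 1077 CPM in dediHeps (log2FC 0.11, SE 0.26, edgeR FDR 0.806). Of 6 members tested 2 were called, Igfbp1 higher and Igfbp7 lower, beside 9.51% of all genes, and the median of the 6 was 0.81 against −0.07 over all genes. Igf1, Igfals, Igfbp2 and Igfbp6 did not pass the filter.

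The 3 aggregate libraries share culture codes in their labels with dediHep replicates 1, 2 and 4, and Igfbp1, Igfbp7 and Ghr each changed in the same direction in all 3 pairs. Igfbp1 rose from 0 to 268 counts, from 190 to 1023 and from 171 to 1443. Igfbp7 fell from 2558 to 118 counts, from 1701 to 469 and from 1328 to 28. Ghr rose from 46.5 to 268 CPM, from 105 to 305 and from 94.8 to 293. Fitted with the culture code as a replicate block, 4 members were called in place of 2, since Igfbp3 (log2FC −2.39, edgeR FDR 0.0329) and Igfbp5 (2.75, edgeR FDR 0.0721) passed, and Ghr came to 1.93 (edgeR FDR 0.00730). Over all genes this block raised the calls from 1071 to 1252 of 11265 tested. Igfbp5 rose in 2 of the pairs, from 2.19 to 18.6 and from 0.508 to 11.3 CPM, and went from 0.814 to 0 CPM in the third.

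Without that block, no aggregate library could be left out without the loss of the call of Igfbp1, at an edgeR FDR of 0.115 to 0.182 and log2FC values of 3.29 to 4.11. The call of Igfbp7 was lost without aggregate replicate 1 (−2.84, edgeR FDR 0.122). Igfbp3 was called without dediHep replicate 3 (−2.24) or 5 (−2.21). Hepatocyte markers moved along, from 930 to 5122 CPM in dediHeps to 9356 to 14783 CPM in aggregates, and their part in the change of Igfbp1 and Ghr was not tested.

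Against FH, aggregates had 4 of 7 members tested called lower and 0 higher, beside 16.6% of all genes. The 4 were Ghr, Igf1, Igfals and Igfbp2. The median of the 7 was −2.02 against −0.04 over all genes. An unadjusted p under 0.05 was found for 6 members, with Igfbp1 among them at a log2FC of 1.80 (SE 0.47, edgeR FDR 0.0157). The share of all genes at that p was not computed. At an FDR under 0.1 and a fold threshold of 1, 3257 of 9544 genes passed in this comparison. Igfbp1 was called when aggregate replicate 1 was left out, at 2.23. The fold of Ghr, −2.02 (SE 0.33, edgeR FDR 0.00120), sat at the threshold, and its call held in 6 of 16 alternatives. The log2FC stood between −1.83 and −1.99 when FH replicate 1 or any 1 aggregate library was left out, and at −1.98 with DESeq2, −1.94 with either other filter, −2.00 with the replicate block by number and −1.92 in 1 fit of all libraries.

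**Figure D4:**
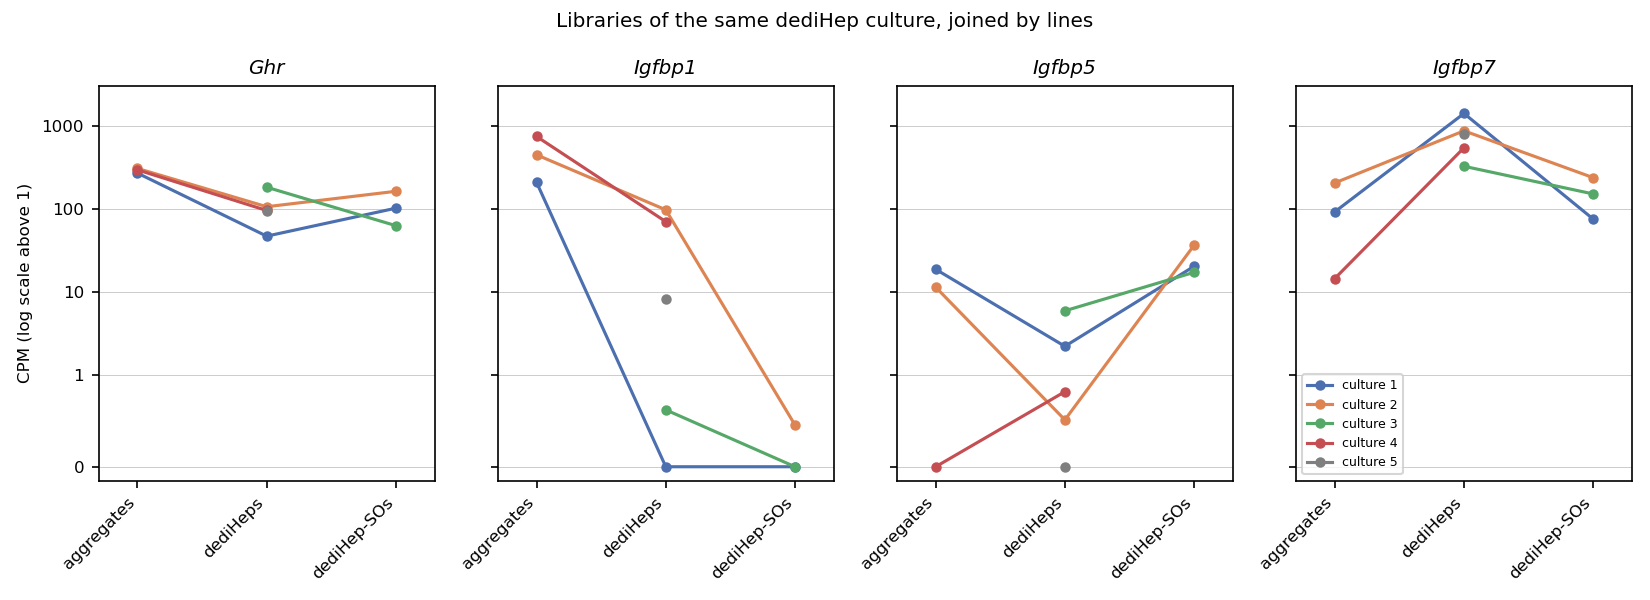
Ghr, Igfbp1, Igfbp5 and Igfbp7 in dediHep aggregates, dediHeps and dediHep-SOs, as CPM on an axis that is logarithmic above 1. Points are libraries, and lines join libraries with the same culture code. All 3 lines to aggregates go up for Ghr and Igfbp1 and down for Igfbp7, and all 3 lines to dediHep-SOs go up for Igfbp5 and down for Igfbp7.

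The spherical organoids from dediHeps held more Igfbp5 than dediHeps and almost no Igfbp1. dediHep-SOs had 20.2, 17.1 and 36.2 CPM of Igfbp5, above all dediHep libraries (2.19, 0.508, 5.86, 0.814 and 0 CPM), a log2FC of 3.59 (SE 0.78, edgeR FDR 0.0135). Igfbp7 was lower, at 74.7, 150 and 236 CPM against 323 to 1400 CPM (log2FC −2.35, SE 0.53, edgeR FDR 0.0167). The 3 dediHep-SO libraries held 1 count of Igfbp1 and the 5 dediHep libraries 380, a ratio of 242 with a counting interval of 43.2 to 9599. The groups overlap in Igfbp1, since dediHep replicate 1 also had 0 counts, and its call (edgeR FDR 0.0581) was lost without any 1 of the dediHep-SO libraries (edgeR FDR 0.124 to 0.219). By culture code, Igfbp1 went from 190 counts to 1 in the culture of dediHep replicate 2. It was at 0 counts in both libraries of replicate 1 and went from 2 to 0 in replicate 3. Replicate 4, with 171 counts, has no dediHep-SO library of its code.

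Ghr did not differ beyond its spread, at 101, 62.2 and 162 CPM in dediHep-SOs against 46.5 to 181 CPM in dediHeps (log2FC 0.10, SE 0.43, edgeR FDR 0.912). Of 6 members tested 3 were called, 1 higher and 2 lower, beside 8.76% of all genes, and their median was −1.33 against −0.05 over all genes. Without dediHep replicate 1 the fold of Igfbp7 was −1.99, just short of the threshold. Without dediHep-SO replicate 3, Igfbp3 was called lower (log2FC −4.44, edgeR FDR 0.0542), and with it was not (−2.12, edgeR FDR 0.235). Hepatocyte markers summed to 14.5 to 37.5 CPM in dediHep-SOs, with Alb, Apoc3, Ahsg and Tat at 0, and their part in the low Igfbp1 was not tested.

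Spherical organoids of hepatocyte origin carried more of 3 binding protein transcripts than those of fetal intestinal origin. Igfbp4 was at 362, 603 and 548 CPM in dediHep-SOs and at 49.1, 39.8 and 67.8 CPM in FIPC-SOs (log2FC 3.25, SE 0.33, edgeR FDR 0.000247). Igfbp5 was at 0.773, 0.362 and 0.969 CPM in FIPC-SOs, against 17.1 to 36.2 CPM (log2FC 5.01, SE 0.56, edgeR FDR 0.000436). Igfbp7 was at 1.16, 3.98 and 20.4 CPM, against 74.7 to 236 CPM (log2FC 4.13, SE 0.83, edgeR FDR 0.00870). These 3 of the 4 members tested were called higher, beside 8.91% of all genes called (14.1% without dediHep-SO replicate 3). None of the 3 overlapped between groups, and the share of all genes without overlap was not computed. The remaining member was Ghr (log2FC 0.99, SE 0.37, edgeR FDR 0.102). The median of the 4 was 3.69 against −0.03 over all genes. The stellate or fibroblast markers summed to 0.905 to 1.51 CPM in dediHep-SOs and to 12.8, 5.79 and 488 CPM in FIPC-SO replicates 1, 2 and 3, the last of which also had the most Igfbp7 of the 3 (20.4 CPM). The part of these markers in Igfbp7 was not tested.

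Budding organoids with forced Cdx2 had less Igfbp7 and Igfbp5 than dediHep-SOs. Igfbp7 was at 7.01, 16.9 and 0.431 CPM in dediHep-BOs (log2FC against dediHep-SOs −4.22, SE 0.80, edgeR FDR 0.00413). Igfbp5 was at 10.5, 3.89 and 3.88 CPM (−2.03, SE 0.50, edgeR FDR 0.0150), with groups that do not overlap but a fold at the threshold. The stellate or fibroblast markers summed to 298, 294 and 4.74 CPM in these dediHep-BO libraries, so the library with the least Igfbp7 also had the fewest of them, and their part in Igfbp7 was not tested. The call of Igfbp5 was lost without dediHep-SO replicate 3 (−1.59), dediHep-BO replicate 2 (−1.77) or dediHep-BO replicate 3 (−1.75). Igfbp4 at 526, 367 and 395 CPM and Ghr at 88.1, 76.9 and 101 CPM did not differ beyond their spread (edgeR FDR 0.501 and 0.541). Of 4 members tested 2 were called lower, beside 11.3% of all genes (17.8% without dediHep-SO replicate 3), with a median of −1.17 against −0.0045 over all genes.

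Against ISC-BOs, organoids from adult intestinal stem cells, 0 of 2 members tested were called in dediHep-BOs by edgeR, beside 3.05% of all genes. The median of both was 1.13, against −0.0014 over all genes. Both members, Ghr and Igfbp4, had an unadjusted p under 0.05 and did not overlap between the groups. How many of all genes did not overlap or had such a p was not computed. Igfbp4 was at 215, 140, 212 and 82.5 CPM in ISC-BOs and higher in dediHep-BOs (log2FC 1.45, SE 0.31, edgeR FDR 0.0200). Ghr was at 58.5, 51.6, 54.8 and 45.1 CPM in ISC-BOs (log2FC 0.81, SE 0.23, edgeR FDR 0.0703). DESeq2, which tested 21106 genes against 11303, called Igfbp5 and Igfbp7, which edgeR did not test. Igfbp5 had 39 counts in dediHep-BOs and 0 in ISC-BOs, at least 16.9-fold, and Igfbp7 had 54 counts and 1 count, a ratio of 70.3 with a counting interval of 12.1 to 2829. Without dediHep-BO replicate 3, Igfbp7 passed the filter and was called. The 2 libraries kept hold 298 and 294 CPM of stellate or fibroblast markers and 14 and 39 counts of Igfbp7, against 4.74 CPM and 1 count in replicate 3 and 3.81 to 8.20 CPM of the markers in ISC-BOs. Their part in the difference was not tested.

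CLiPs, made from hepatocytes with small molecules, had less Igfbp4 than dediHeps. Its levels were 25.6, 209 and 120 CPM, below all dediHep libraries (log2FC −2.70, SE 0.59, edgeR FDR 0.0443). It was the only one of 5 members tested that was called, beside 3.04% of all genes (1.94% without dediHep replicate 2 and 0.896% without CLiP replicate 1), and the call was lost without CLiP replicate 3 (−2.72, edgeR FDR 0.107). DESeq2 called 2 members, Igfbp3 (log2FC −2.68) and Igfbp4. Igfbp7 was abundant in both kinds of culture, at 746, 834 and 218 CPM in CLiPs (log2FC −0.44, SE 0.54, edgeR FDR 0.711), and Igfbp5 had 0 counts in CLiPs. The median of the 5 was −0.66 against −0.03 over all genes. Macrophage markers summed to 137, 70.9 and 149 CPM in CLiPs and to 0.965 to 10.5 CPM in dediHeps, and their part in these values was not tested.

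CLiP replicate 3 stood apart. It had 182 CPM of Igfbp1 against 3.59 and 17.2 CPM, 10.2 CPM of Igfals against 0.512 and 0.671 CPM, 31.2 CPM of Igfbp6 against 0 and 0.224 CPM, and a hepatocyte marker sum of 8852 CPM against 2096 and 2187 CPM. Against FH, 6 of 7 members were called in CLiPs, beside 24.5% of all genes, with Ghr, Igf1, Igfals, Igfbp2 and Igfbp4 lower and Igfbp7 higher and a median of −4.07 against 0.18 over all genes. Without CLiP replicate 3, Igfbp1 was called lower as well (log2FC −3.60, edgeR FDR 0.00258), as it was with the replicate block by number (−2.39, edgeR FDR 0.0765), whereas with it the value was −0.94 (SE 1.06, edgeR FDR 0.547). The call of Igfbp7 (2.10, SE 0.77, edgeR FDR 0.0722) came with overlapping groups and was lost with DESeq2 (2.00, just short of the threshold) and with RLE normalization (1.94). It was also lost with 1 library left out, at log2FC values of 1.87 and 1.67 without FH replicate 2 or 3 and of 1.86 and 1.73 without CLiP replicate 1 or 2. A block by the last number of the library names also ended the call (1.39, edgeR FDR 0.124). The labels do not say that this number marks a culture shared by CLiPs and FH.

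Verteporfin changed no member beyond the thresholds in 2 libraries against 2. Of 7 members tested 0 were called by edgeR and 0 by DESeq2, beside 0.269% of all genes (0.395% to 0.969% without DMSO replicate 1, DMSO replicate 2 or verteporfin replicate 2), and 2 had an unadjusted p under 0.05. These were Igfbp3, at 28.9 and 97.7 CPM with verteporfin and 143 and 239 CPM with DMSO (log2FC −1.61, SE 0.46, edgeR FDR 0.314), and Igfbp1, at 589 and 628 CPM against 427 and 424 CPM (0.51, SE 0.21, edgeR FDR 0.497). Neither overlapped between the groups, and the same holds for Ghr. With 2 libraries against 2 this is common, and the shares of all genes without overlap or with an unadjusted p under 0.05 were not computed. Igfbp3 was called without verteporfin replicate 2 (−2.70, edgeR FDR 1.78e-07), a fit in which the lone verteporfin library is assumed to vary like the DMSO libraries. Ghr was at 308 and 314 CPM against 259 and 297 CPM (0.16, SE 0.22, edgeR FDR 0.872). The median of the 7 was 0.16 against −0.0042 over all genes.

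A list of 31 other genes of the growth hormone and IGF pathways, with receptors, ligands, signal transducers, inhibitors, proteases and IGF2 mRNA-binding proteins, gives the surroundings of the members. Igf1r, the IGF1 receptor gene, had 0 counts in all FH and 3 h libraries, 5.08 ± 4.19 CPM at 1 week, 11.1 ± 1.84 CPM at 2 weeks and 29.8 ± 33.4 CPM in dediHeps (9.77 to 88.7 CPM). Against 3 counts over the FH group this is at least 4.83-fold at 1 week, at least 10.4-fold at 2 weeks and at least 23.3-fold in dediHeps (edgeR FDR 0.00566, 0.000657 and 0.00673). At 2 and 4 days, when Igf1 was already called lower, the Igf1r groups held 3 and 2 counts in all and were not called.

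Igf2, the fetal ligand gene that adult mouse liver silences, had 0 counts in FH and 3.83 to 63.1 CPM in dediHeps, at least 30.3-fold higher (edgeR FDR 0.00418). Aggregates had 51.8 to 412 CPM, above dediHeps by a log2FC of 2.63 (SE 0.76, edgeR FDR 0.0435), although the groups overlap. dediHep-SOs had 1 count. Insr, the insulin receptor gene, was called lower at every time from 1 day on, and its FH libraries were spread from 70.8 to 449.9 CPM. Igf2r, which clears IGF2, was called in only 1 comparison, lower in aggregates than in dediHeps (log2FC −2.07, SE 0.63, edgeR FDR 0.0517).

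At 3 h, when Igfbp1 peaked, 3 of 24 pathway genes tested were called, all higher, beside the 6.91% of all genes. They were the feedback inhibitors of cytokine and growth hormone signaling Socs1 (177 ± 54.5 CPM, against 2 counts in FH, a ratio of 240 with a counting interval of 66.1 to 1989), Socs3 (170 ± 92.5 against 11.4 ± 14.7 CPM) and Cish (233 ± 79.6 against 53.1 ± 76.0 CPM). At 1 day 1 was called higher and 4 lower (5 of 24, beside 17.4% of all genes), at 2 days 1 and 5 (21.3%), at 4 days 3 and 5 (23.8%), at 1 week 6 and 4 (25.9%) and at 2 weeks 6 and 5 (29.5%). Prlr, a receptor gene of the same family as Ghr, was called lower at each of these times, with 95.7 ± 40.1 CPM in FH, 10.4 ± 2.26 CPM at 1 day and 1 count in all 4 day libraries. Unlike Ghr it did not return, with 0.443 ± 0.482 CPM at 1 week. The medians of the 24 genes ran from −0.72 to 0.03 over the time course.

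In dediHeps against FH 9 of the 24 pathway genes tested were called higher and 2 lower, beside 25.7% of all genes, with a median of 0.17. The 3 with the smallest p among the higher were the IGF2 mRNA-binding protein genes Igf2bp3, Igf2bp1 and Igf2bp2, and the lower were Prlr and Insr. Aggregates had 1 gene higher (Igf2) and 5 lower than dediHeps of 24 tested (9.51% of all genes), led by Socs2 at 8.24 ± 4.97 against 95.8 ± 52.4 CPM (log2FC −3.46, SE 0.64, edgeR FDR 0.00709), with a median of −0.39. Against FH they had 3 higher and 3 lower of 18 (16.6%). dediHep-SOs had 0 higher and 7 lower than dediHeps of 23 (8.76%), among them Igf2 and Igf1r, with a median of −0.64. Against FIPC-SOs 1 of 21 was higher (Irs1) and 3 were lower (Igf2bp1, Igf2bp3 and Stc2), beside 8.91%. dediHep-BOs had Prlr higher and Stc1 lower than dediHep-SOs, of 19 tested (11.3%), and Irs1 higher and Stc2 lower than ISC-BOs, of 19 (3.05%). CLiPs had 2 of 24 lower than dediHeps (Igf2bp1 and Igf2bp3, beside 3.04%) and 3 of 19 higher (Igf2, Igf2bp2 and Igf1r) and 2 lower (Prlr and Insr) than FH (24.5%). With verteporfin 0 of 16 were called by edgeR (0.269% of all genes), of which 3 had an unadjusted p under 0.05. The share of all genes at that p was not computed.

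**Figure D5:**
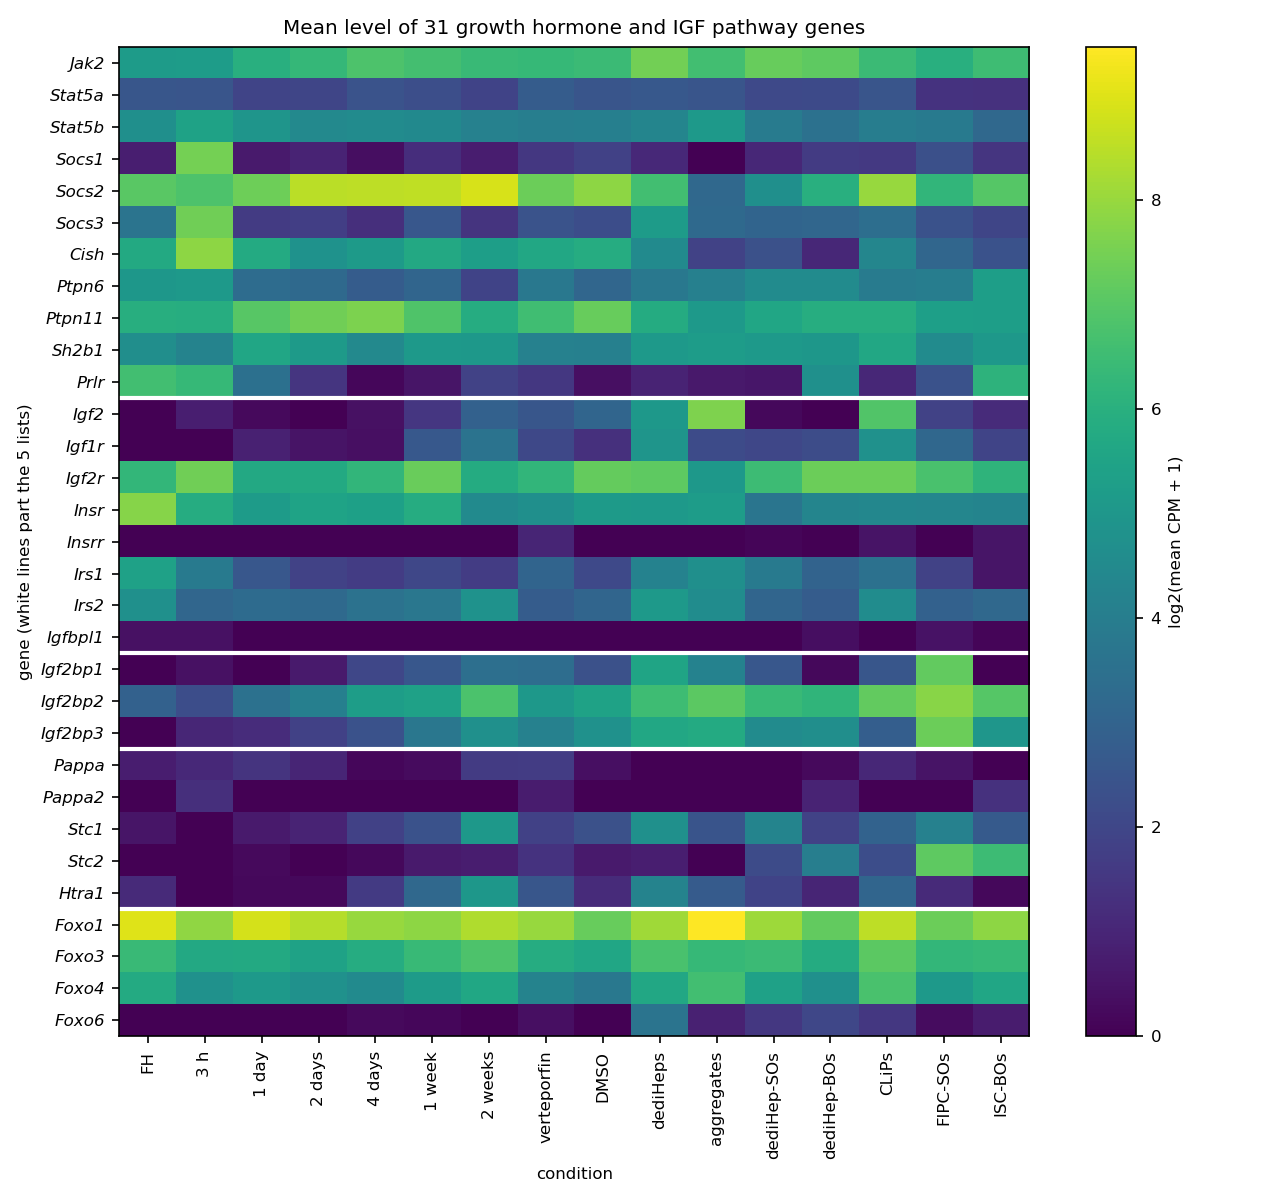
Mean levels of the 31 pathway genes (rows) in the 16 conditions (columns), as log2 of the mean CPM plus 1. Socs1 and Socs3 stand out at 3 h (177 ± 54.5 and 170 ± 92.5 CPM), Igf1r is at 0 in FH and 3 h, and Igf2 is highest in aggregates (196 ± 190.0 CPM) and CLiPs (119 ± 62.4 CPM).

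The members did not move as one family across the 16 condition means of log2(CPM + 1), which are described without a test because neighbouring conditions share cultures and medium. Pearson's r was 0.90 between Igf1 and Igfals, 0.82 between Ghr and Igfbp4 and 0.81 between Ghr and Igfals. It was 0.50 for the adjacent genes Igfbp1 and Igfbp3 and 0.03 for Igfbp2 and Igfbp5, and −0.39 for Igfbp2 and Igfbp3. Among 12790 genes the highest r with Ghr was that of Lrp1 (0.91), Fam210b (0.89) and Adrb3 (0.89). For Igf1 it was Hamp2 (0.97), Egfr (0.95) and Hectd2 (0.94), and for Igfals Cecr2, Gulo and S1pr1 (0.97 each).

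For Igfbp1 the 3 genes were Ahsg (0.97), Fgb (0.95) and Hamp (0.95), all secreted by hepatocytes. Ahsg and Fgb are also on the hepatocyte marker list. For Igfbp2 they were Gm13773 (0.99), C8a (0.98) and Obp2a (0.98), for Igfbp3 9930111J21Rik2 (0.95), Tbc1d2b (0.94) and Wincr1 (0.94), and for Igfbp4 Tcp11l2 (0.89), Tm2d2 (0.88) and Plcb1 (0.87). For Igfbp5 they were Ppp1r3c (0.89), Skp1a (0.88) and Bnip3 (0.81), for Igfbp6 Slc37a3 (0.83), Stx8 (0.81) and Il34 (0.81), and for Igfbp7 Serpinb6b (0.93), Cavin2 (0.92) and Bdnf (0.90). In the order of condition means, neighbouring groups overlapped in 10 of 15 pairs for Igf1, 12 for Igfbp1 and Igfbp2, 13 for Igfals and Igfbp4, and 14 for Igfbp3 and Igfbp7, so only part of each order is resolved by these libraries.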

How the data were processed

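The authors sequenced CEL-Seq2 libraries and deposited 1 table of UMI counts per gene and library, with no normalization. The submitters' processing notes name bcl2fastq 2.20, Bowtie2 2.3.1, HTSeq 0.6.0 and GRCm38, and the study's methods name the celseq2 pipeline. The annotation release and the strand setting of the counting are not given in the sources used here. UMIs of 6 bases allow 4096 molecules per gene and library, so high counts are compressed.

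Counts were tested in R 4.3.3 with edgeR 4.0.16 (TMM, filterByExpr with a minimum count of 10 and total of 15, quasi-likelihood F-test, Benjamini-Hochberg over all genes tested). FH and the 6 time points shared 1 fit, and every other comparison was fitted on its 2 groups. Calls needed both an FDR under 0.1 and an absolute log2 value beyond 2. DESeq2 1.42.0 was an alternative, and others were RLE factors, library sizes alone, other filters and thresholds, a UMI correction, replicate blocks, 1 fit of all 49 libraries, and the omission of each library. The pipeline was tested on simulated data. Folds against groups at 0 use 3 counts over the group, and ratios with 1 to 3 counts carry 95% counting intervals. Sequence and figure steps used Python 3.11.15, pandas 2.3.3 and matplotlib 3.10.9.

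Groups came from the labels. The text names all members, the pathway genes Igf1r, Insr, Igf2r and Igf2, at most the 3 called genes of smallest p per direction and list, and 3 like genes per member among genes with a mean of at least 10 CPM in some condition. Socs1, Socs2, Socs3, Cish and Prlr follow that rule. The members and lists were chosen with earlier results of these data known. The motifs were chosen with the Igfbp1 sequence known. Aggregates and dediHeps were compared without pairing in the main fit. An alternative fit used the culture codes in the labels as a block, since deviations from the group means correlated in every pair (r 0.185 to 0.357). The counts of 54 pairs of libraries within a group differed beyond sampling noise (chi-square over its degrees of freedom between 6.29 and 74.5).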

Additional observations from a re-analysis of the deposited data

Results flagged for a closer look

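Each member was examined in dediHeps (5 libraries) and ISC-BOs (4 libraries), the conditions with enough libraries. Of the 15 sets whose values were not all equal, 3 had a library far from the others. The sets share the same libraries, so no chance rate is given. Igfbp4 stood at 1077 CPM in dediHep replicate 1, against 567 to 691 CPM in the other 4 dediHep libraries. In ISC-BOs, Igfbp3 was at 0.456 CPM in replicate 4 and Igfbp7 at 0.435 CPM in replicate 3, each a single count in a group whose other libraries had 0. Both are below the limit that a count of 0 allows, and the rule always flags a lone count in such a group.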

How the results depend on the processing

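Of 54 member calls, 39 held under every alternative run that gave the gene a fold and an FDR. Igfbp3 in dediHeps against FH had these in only 15 alternatives, where the other called members of that comparison had them in 18. The number of members called moved by over 1.5 times as follows. A fold threshold of 1 gave 8 at 1 day, 7 at 2 weeks and 1 in dediHep-BOs against ISC-BOs. Over all genes that threshold gave 4363 and 6181 calls of 12443 tested, and 968 of 11303. An FDR of 0.05 gave 1 in aggregates against dediHeps, where the replicate block by culture code gave 4. All genes had 870 and 1252 calls of 11265 under these settings. A filter of 0.5 CPM gave 5 in dediHep-SOs against FIPC-SOs and 2 in dediHep-BOs against ISC-BOs, and no filter 5 and 3. Over all genes the calls were 1922 of 19210 and 709 of 19265 with that filter. They were 2052 of 21816 and 798 of 21106 with none. DESeq2 gave 2 in dediHep-BOs against ISC-BOs and 2 in CLiPs against dediHeps, and 1 fit of all libraries 2 and 4. Over all genes the calls were 540 of 21106 and 726 of 21769 with DESeq2, and 495 and 1169 of 14710 in that fit. The replicate block by number gave 0 in CLiPs against dediHeps (Igfbp4 −3.15, edgeR FDR 0.117), and changed 4 other calls, with Igfbp1 gained in dediHeps against FH (−4.53, edgeR FDR 0.00678) and in CLiPs against FH (−2.39, edgeR FDR 0.0765) and lost in dediHep-SOs against dediHeps (−6.23, edgeR FDR 0.101), and Ghr lost in aggregates against FH (−2.00, edgeR FDR 0.00346). Deviations of time-course libraries correlated with those of same-numbered FH libraries at r of −0.611 to 0.447, and correlations between culture times were not computed. Replicate 3 had the lowest macrophage and stellate or fibroblast sums at every time from 1 day to 2 weeks. With 1 library left out the counts ran from 0 to 1 in CLiPs against dediHeps, 0 to 3 in aggregates against dediHeps, 0 to 1 in dediHep-BOs against ISC-BOs, 1 to 2 in dediHep-BOs against dediHep-SOs and 0 to 1 with verteporfin.

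Directions turned for uncalled members alone. Igfbp1 at 2 weeks came to 0.64 with library sizes alone and 0.0055 with the UMI correction. Igfbp4 in aggregates against dediHeps came to −0.12 with library sizes alone and −0.0205 with the replicate block by number, and Igfbp7 in aggregates against FH to 0.15 with library sizes alone. With 1 library left out, Ghr ran from −0.038 to 0.28 at 3 h, −0.59 to 0.15 in dediHep-BOs against dediHep-SOs and −0.31 to 0.40 in dediHep-SOs against dediHeps. Igf1, Igfals and Igfbp4 with verteporfin ran from −0.033 to 0.35, −0.12 to 0.52 and −0.61 to 0.32, Igfbp1 from −0.31 to 0.17 at 2 weeks and −1.75 to 1.76 in CLiPs against dediHeps, and Igfbp7 from −1.42 to 0.52 in aggregates against FH. Library sizes alone ended the calls of Igf1 and Igfbp7 at 2 days (−1.49 and −1.77), Ghr and Igfbp4 at 4 days (−1.30 and −1.92), Igf1 at 1 week (−1.95) and Ghr in aggregates against FH (−1.37). The cause was not tested.

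Over all genes, a fold threshold of 1 raised the called genes 1.39 to 2.81 times. Library sizes alone moved the split of higher and lower calls in dediHeps against FH from 1480 and 1421 to 2592 and 961, at 1 week from 1638 and 1587 to 2991 and 1055, and in aggregates against dediHeps from 495 and 576 to 425 and 767. Without a filter verteporfin had 90 calls in place of 28 and CLiPs against dediHeps 714 in place of 352, where DESeq2 gave 726, an FDR of 0.05 gave 216 and 1 fit of all libraries gave 1169. That single fit gave 0 calls with verteporfin. Igfbp5, Igfbp6 and, in organoids, Igf1 and Igfbp2 lay at or near 0 counts, so changes in them were not detectable at this depth where both groups were under the limit of 3 counts.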
